A study of Homo sapiens with 4 samples.

Results

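Synaptotagmin-like proteins and the RAB27 vesicle docking machinery were examined at the transcript level in the established myeloma line MM.1S, a human plasma cell tumour grown in culture, after inhibition of the chaperone HSP70. The 7 genes are SYTL1, SYTL2, SYTL3, SYTL4, RAB27A, RAB27B and UNC13D, and each matched exactly 1 of the 16057 genes in the table by its symbol. The group was chosen by a measured value: SYTL1 has one of the largest rises after treatment, and the other 6 genes were added because they belong to the same families or pathway. The SYTL1 difference is therefore given as a description with no test, and it supports nothing else in the text. The cells received JG342, an allosteric HSP70 inhibitor, at 350 nM, or the solvent DMSO with no inhibitor, and all were collected 26 h later. Each treatment had 2 libraries, which the submitters describe as biological duplicates. All 4 libraries come from the same tumour-derived line, so the spread between them is that of repeated cultures and not of patients.

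RAB27 proteins are small GTPases that sit on secretory granules, lysosome-related organelles and multivesicular bodies, and in the GTP-bound state they bring these vesicles to the plasma membrane. Synaptotagmin-like proteins bind active RAB27 with an amino-terminal domain and bind membrane phospholipids with a pair of C2 domains, so that they link vesicle and membrane. UNC13D, also called Munc13-4, is a RAB27 effector that primes docked granules for fusion in cytotoxic lymphocytes, and loss of RAB27A or UNC13D impairs killing by these cells. In plasma cells and their tumours, antibody leaves mainly by the constitutive secretory route, while RAB27 proteins are known for the release of exosomes.

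The promoter of SYTL1 is shown because SYTL1 carried by far the largest change of the group and because its window held the only match to the motifs searched among these genes. RefSeq windows (GRCh38.p14) of 300 bases, from 250 before to 50 after each gene's start, were searched on both strands for TGATGNAAN, the C/EBP-ATF response element bound by stress factors such as ATF4, and for TGACGTCA, the cAMP response element. The SYTL1 window lies at chr1:27341772-27342071 on the plus strand and is printed 5′ to 3′, with the match in capitals.
SYTL1: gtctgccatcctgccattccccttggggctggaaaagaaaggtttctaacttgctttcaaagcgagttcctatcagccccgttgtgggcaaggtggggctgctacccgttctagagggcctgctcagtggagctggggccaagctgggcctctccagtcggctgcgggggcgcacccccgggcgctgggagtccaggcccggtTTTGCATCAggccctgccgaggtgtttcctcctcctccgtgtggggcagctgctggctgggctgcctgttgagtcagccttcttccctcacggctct
The match reads TGATGCAAA on the strand opposite to the gene, and its leftmost base lies 47 bases before the start. A match to this element was found in 3.61% of the 35116 windows in the RefSeq table and in 4.45% of its 27305 genes, and the cAMP response element in 1.85% of the windows. No match to either motif was found in the 5 windows of RAB27A, the 2 of RAB27B, the 2 of SYTL3 or the 2 of SYTL4. SYTL2 and UNC13D had no window in the table. A match is a run of letters and does not show that a factor binds there.

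The deposited values are TPM, transcript abundances that are scaled by transcript length and library total and therefore allow levels of different genes to be set side by side. Each library summed to between 994463 and 994718 TPM, and between 1118 and 1418 genes were listed at 0. TPM keep no read depth, so no counting intervals are given. Of the plasma cell and myeloma markers, all 10 had a row and none was at 0 in a library. Their summed level was 15116 and 14838 TPM with DMSO and 10940 and 10251 TPM with JG342. The antibody joining chain JCHAIN made up most of this sum, at 9907 and 10383 TPM against 5732 and 5431 TPM. Without it the other 9 markers summed to 5209 and 4454 TPM with DMSO and 5209 and 4820 TPM with JG342, which overlap. Of the 10 markers JCHAIN and TNFRSF17 fell, and the plasma cell factors IRF4 and PRDM1 rose. Markers of T and NK cells, in which UNC13D is best known, were uneven and low in sum. Of these 10, 8 had a row, and 3 stayed under 1 TPM in every library. Their sum was 38.9 and 42.3 TPM with DMSO and 52.3 and 47.5 TPM with JG342. KLRD1 was the highest, at 18.1 and 18.6 TPM with DMSO and 21.5 and 16.7 TPM with JG342. CD3G, NCAM1 and GNLY lay between 2.79 and 12.3 TPM, and PRF1, perforin, was at most 0.25 TPM. Of the 5 fitted T and NK markers CD3G and NCAM1 rose, and CD3E, at 5.49 and 7.70 TPM against 5.26 and 3.21 TPM, KLRD1 and GNLY did not pass. Melanocyte, platelet, mast cell or neutrophil, and epithelial markers summed to at most 22.4, 1.16, 0.24 and 11.2 TPM in a library. The part of these differences in the results below was not tested. In bulk RNA a change in the number of cells of a kind and a change of RNA per cell cannot be told apart.

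SYTL1 (NM_001193308), also known as Slp1 or JFC1 and studied for granule release in neutrophils, went from a low to a moderate level. It stood at 3.37 and 3.12 TPM in DMSO replicates 1 and 2 and at 65.2 and 62.2 TPM in JG342 replicates 1 and 2. Both treated libraries lay far above both controls, and libraries of the same treatment were close to each other. The mean rose from 3.25 ± 0.18 TPM (SD, n = 2) to 63.7 ± 2.10 TPM (SD, n = 2), a ratio of 19.6. On the log2(TPM + 1) scale the difference was 3.93, with 3.92 between the libraries numbered 1 and 3.94 between those numbered 2. This was the second largest rise (rank 2) among the 12042 genes tested, those whose mean over the 4 libraries reached 1 TPM. CBS, a transsulfuration enzyme, was the one above it at 4.49, and the urea cycle enzyme ASS1 the one below at 3.80. The rank belongs to this scale, which understates the change of low genes. By the ratio of means RCAN2 (0.255 to 13.1 TPM) and GDF15 (0.23 to 11.3 TPM) rose more than SYTL1, from control levels under 1 TPM.

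The other synaptotagmin-like genes stayed low in every library. SYTL2 (NM_001162951), which acts in melanosome and secretory granule docking, was at 1.81 and 2.21 TPM with DMSO and at 1.98 and 0.94 TPM with JG342. The treatments overlapped, since JG342 replicate 1 lay between the DMSO libraries. The log2 difference was −0.32 ± 0.25 SE, with a 95% interval from −0.89 to 0.24 (limma adjusted p 0.401), and leaving out single libraries moved it between −0.63 (without JG342 replicate 1) and −0.01 (without JG342 replicate 2). SYTL4 (NM_001129896), granuphilin, which docks insulin granules, was at 0.46 and 0.59 TPM with DMSO and 0.29 and 0.47 TPM with JG342, again with overlap. SYTL3 (NM_001009991) was at 0.19 TPM and listed at 0 with DMSO and at 0.10 and 0.18 TPM with JG342, also overlapping. SYTL5, the remaining family member, was listed at 0 and at 0.14 TPM with DMSO and at 0.10 and 0.30 TPM with JG342. SYTL3 and SYTL4 were below the mean of 1 TPM needed for a test. At such levels single libraries say little: of 1740 genes with a mean between 0.1 and 0.6 TPM, 40.4% were listed at 0 in at least 1 library.

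The make-up of the SYTL family is given as a description, since it follows from the SYTL1 values. SYTL1 supplied 57.8% and 51.5% of the summed TPM of SYTL1 to SYTL5 with DMSO and 96.3% and 97.05% with JG342. SYTL2 supplied 31.05% and 36.5% with DMSO and 2.93% and 1.47% with JG342. The whole sum was 5.83 and 6.06 TPM with DMSO and 67.6 and 64.1 TPM with JG342. Without SYTL1 it was 2.46 and 2.94 TPM with DMSO and 2.47 and 1.89 TPM with JG342, which overlap.

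**Figure D1:**
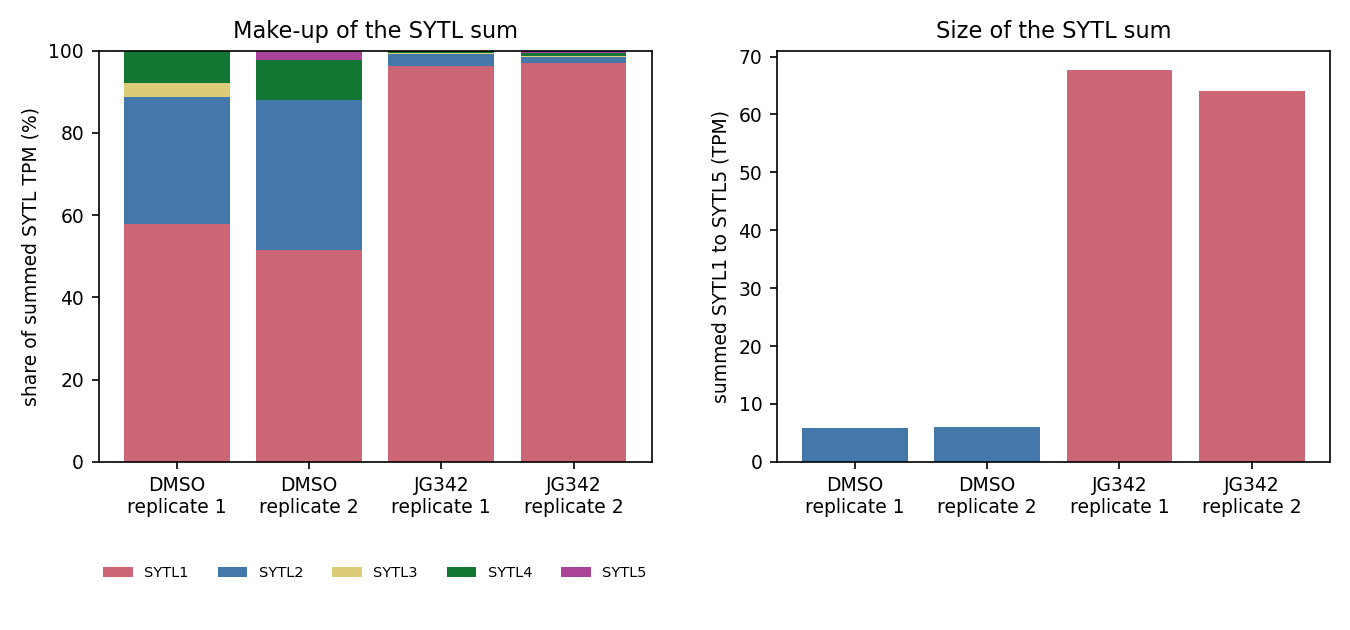
The left panel stacks the share (%) of each SYTL gene in the summed TPM of SYTL1 to SYTL5 for each library, and the right panel gives that sum in TPM. SYTL1 fills 51.5% to 57.8% of the DMSO bars and 96.3% to 97.05% of the JG342 bars, and the sum is near 6 TPM with DMSO and above 64 TPM with JG342.

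RAB27A, the GTPase to which these proteins bind, was the most abundant gene of the group before and after treatment. RAB27A (NM_004580) was at 81.5 and 91.02 TPM with DMSO and at 130.9 and 132.9 TPM with JG342. Both treated libraries lay above both controls. The mean rose from 86.3 ± 6.71 TPM (SD, n = 2) to 132 ± 1.39 TPM (SD, n = 2), a ratio of 1.53, and the log2 difference was 0.61 ± 0.10 SE (limma adjusted p 0.00515). It was 0.68 between the libraries numbered 1 and 0.54 between those numbered 2. Without each library in turn the log2 difference ran from 0.53 to 0.69 and the limma adjusted p from 0.0127 to 0.0409. The size is moderate for this treatment: 18.4% of all 12042 genes fitted passed the same threshold, 10.8% as higher and 7.62% as lower, and RAB27A had rank 871 by the size of its rise. Scaling moved the balance over all genes, from 58.7% higher among the genes called to 44.6% after scaling to equal medians, and RAB27A passed under that scaling too (0.54, limma adjusted p 0.0132).

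RAB27B and UNC13D were near the lower limit of the table. RAB27B (NM_004163), the paralog found on exosome-releasing compartments in several cell types, was at 0.21 TPM in both DMSO libraries and at 0.16 and 0.14 TPM in the JG342 libraries. The treated values lay below the controls by at most 0.07 TPM, and the gene was too low for a test. RAB27A made up between 99.7% and 99.9% of the RAB27 total in each library. UNC13D (NM_199242) was listed at 0 in both DMSO libraries and in JG342 replicate 2, and at 0.15 TPM in JG342 replicate 1. Of the 7 genes, 3 were thus high enough to be fitted and 4 were not. Of the 2 fitted genes that the choice did not rest on, RAB27A passed and SYTL2 did not.

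**Figure D2:**
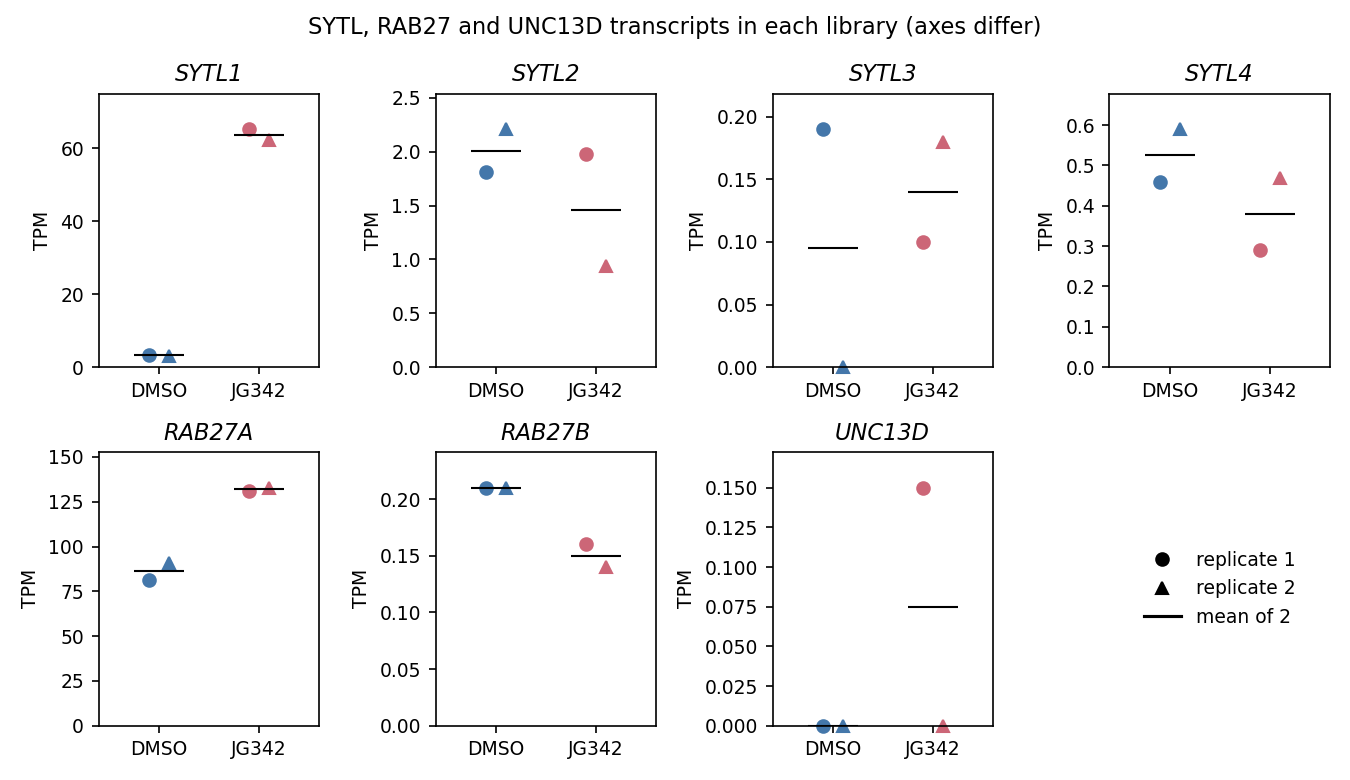
Each panel plots 1 gene in TPM (linear axis from 0, scale differing between panels) with replicate 1 as a circle, replicate 2 as a triangle and the mean of each treatment as a line. SYTL1 and RAB27A have treated points well above the controls, at 62.2 to 65.2 and 130.9 to 132.9 TPM, while SYTL2, SYTL3 and SYTL4 overlap between treatments and UNC13D is at 0 in 3 libraries.

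With DMSO the order of the levels was RAB27A, SYTL1, SYTL2, SYTL4, RAB27B, SYTL3 and UNC13D, and down to SYTL3 the libraries of neighbours in this order did not overlap. The step from RAB27B (0.21 TPM in both) to SYTL3 (0.19 TPM and 0) rests on very low values, and SYTL3 and UNC13D shared the value 0. With JG342 the first 4 places kept their order, at 131 to 133, 62.2 to 65.2, 0.94 to 1.98 and 0.29 to 0.47 TPM. RAB27B (0.14 to 0.16 TPM), SYTL3 (0.10 to 0.18 TPM) and UNC13D (0 to 0.15 TPM) overlapped with each other and had no order. The summed SYTL level relative to the summed RAB27 level was 0.0713 and 0.0664 with DMSO and 0.516 and 0.482 with JG342. This shift follows from the SYTL1 values and is given as a description. The summed SYTL level lay below that of RAB27 in every library.

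**Figure D3:**
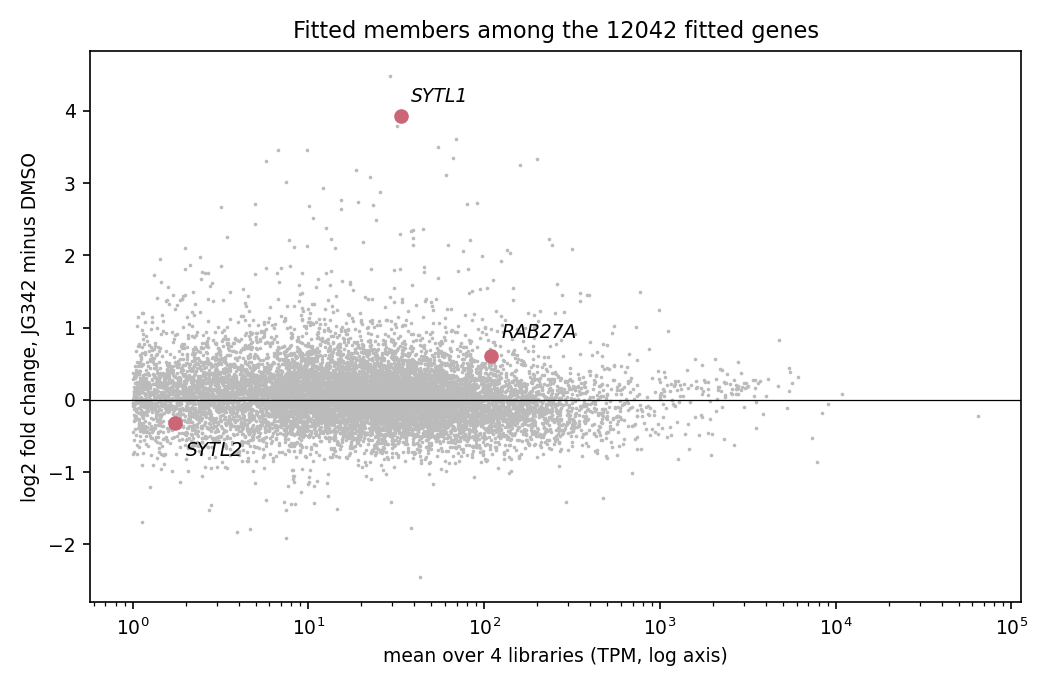
Each grey point is 1 of the 12042 fitted genes, with its mean level over the 4 libraries (TPM, log axis) against its log2 difference between JG342 and DMSO. SYTL1 stands at 3.93 among the highest points, RAB27A at 0.61 above the zero line and SYTL2 at −0.32 below it.

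Genes lying next to SYTL1 and RAB27A on the chromosome were compared after the values had been seen, taking the 3 nearest protein-coding genes with a row on each side in RefSeq. Around SYTL1, 5 of 6 neighbours were fitted and 0 passed in limma, beside 18.4% of all genes fitted. With only 5 genes this count says little. Of the 5, 1 (GPR3) had an unadjusted limma p under 0.05. The limma adjusted p ran from 0.0907 for GPR3 to 0.835 for WASF2. TMEM222 on one side was at 52.7 and 49.97 TPM with DMSO and 53.4 and 55.4 TPM with JG342. MAP3K6, a stress kinase on the other side, was at 1.66 and 0.69 TPM against 1.04 and 0.51 TPM and was not fitted. The fitted neighbours differed by between −0.63 and 0.27 on the log2 scale. Around RAB27A, 5 of 6 neighbours were fitted and 3 rose, all on the side of its start, beside 10.8% of all genes fitted.

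PIGBOS1, a small gene that overlaps the start of RAB27A on the same strand, was at 17.8 and 19.3 TPM with DMSO and 32.7 and 29.2 TPM with JG342 (log2 difference 0.70 ± 0.12 SE, limma adjusted p 0.00677). Because the genes overlap on the same strand, reads may have been split between RAB27A and PIGBOS1 under any strand setting. Both values are uncertain to that extent. PIGB, which adds a mannose during synthesis of membrane anchors, starts beside RAB27A on the opposite strand and was at 15.5 and 20.9 TPM with DMSO and 29.4 and 28.4 TPM with JG342 (0.66 ± 0.15, limma adjusted p 0.0193; 0.120 without DMSO replicate 1). CCPG1, a receptor for autophagy of the endoplasmic reticulum, had the largest change there, from 51.1 and 50.7 TPM to 223 and 215 TPM (2.08 ± 0.09, limma adjusted p 1.69e-05). On the other side RSL24D1 was at 154 and 207 TPM with DMSO and 222 and 288 TPM with JG342, and the value of 0.50 ± 0.16 on the log2 scale missed the threshold (limma adjusted p 0.0597). UNC13C, a relative of UNC13D, was at 8.29 and 7.99 TPM against 7.06 and 5.56 TPM (−0.33 ± 0.16, limma adjusted p 0.197), and WDR72 was at most 0.08 TPM.

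**Figure D4:**
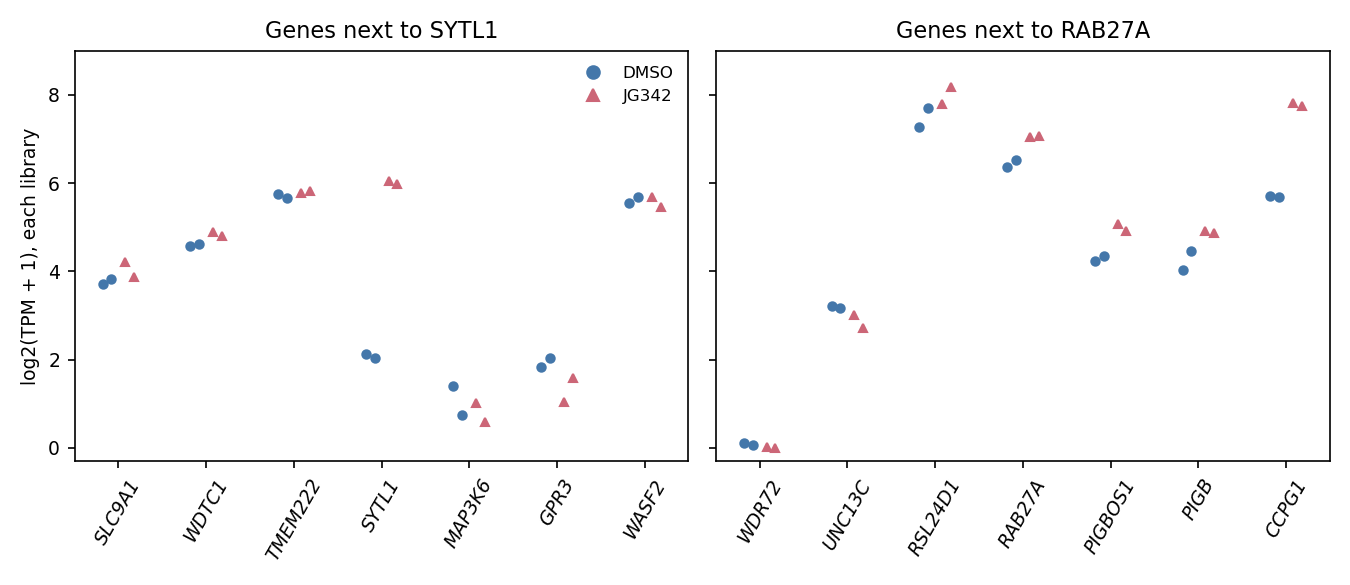
Levels as log2(TPM + 1) of SYTL1 (left), RAB27A (right) and the 3 protein-coding neighbours on each side, in chromosome order, with DMSO libraries as circles and JG342 libraries as triangles. The treated points of SYTL1 lie about 3.93 above the controls, its fitted neighbours differ by −0.63 to 0.27, and RAB27A, PIGBOS1, PIGB and CCPG1 have all treated points above their controls.

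Genes that handle RAB27 and its vesicles were followed as 8 lists with 128 genes, of which 121 had a row and 103 were fitted. Of these 103 genes 19 passed (18.4%), the same share as over all genes (18.4%), with 16 higher and 3 lower. The median log2 difference was 0.13, against 0.03 over all genes fitted. After scaling to equal medians 12 of the listed genes rose and 3 fell, beside 966 higher and 1200 lower of all 12042 genes fitted. With any single library left out, fewer of the listed genes passed than in the main fit. Fewer of all genes fitted passed in each of these fits too, where fewer samples were fitted.

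Among the other RAB27 effectors, 2 of 5 fitted genes passed (40.0%, against 18.4% of all fitted genes), in opposite directions. The median was −0.04. MYO7A, an unconventional myosin that is linked to RAB27A on melanosomes through MYRIP, was at 4.33 and 4.66 TPM with DMSO and at 1.11 and 0.72 TPM with JG342. It fell by 1.53 on the log2 scale (SE 0.20, limma adjusted p 0.0020) and passed without each library in turn. RPH3AL, also called Noc2, which binds RAB3 and RAB27 on endocrine granules, was at 3.04 and 3.45 TPM and then at 5.91 and 6.05 TPM. It rose by 0.72 ± 0.17 (limma adjusted p 0.0194). Without DMSO replicate 1, DMSO replicate 2 or JG342 replicate 2 the difference was 0.65, 0.79 and 0.70 and no longer passed (limma adjusted p 0.106, 0.0732 and 0.0536). MYO5A, the motor that carries RAB27A vesicles along actin, was at 28.97 and 26.4 TPM against 31.3 and 23.1 TPM. EXPH5, a RAB27 effector without C2 domains, was at 10.2 and 10.9 TPM against 9.95 and 9.23 TPM. Neither MYO5A nor EXPH5 passed. MLPH, the adaptor between RAB27A and MYO5A in pigment cells, was at most 0.25 TPM and was not fitted.

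Of 10 fitted genes for the activation, inactivation and lipid modification of RAB27, 2 rose and none fell, with a median of 0.01. DENND10, listed in the table under its older symbol FAM45A and linked to RAB27 in late endosomes, went from 25.4 and 24.5 TPM to 37.2 and 39.2 TPM, by 0.60 ± 0.11 (limma adjusted p 0.00865; 0.0648 without DMSO replicate 2). Its transcript matches the copy FAM45BP at 99.6% identity over 88.4% of its length, so its value is uncertain. The abundant GDI2 and RABGGTB, the latter a subunit of the enzyme that attaches prenyl groups to RAB proteins, did not pass, and RABGGTB was at 137 and 148 TPM against 147 and 138 TPM.

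Of 11 related secretory RAB genes, 1 passed, against a background of 18.4%. RAB37, which acts in granule secretion, went from 2.61 and 2.40 TPM to 5.19 and 4.92 TPM, by 0.79 ± 0.17 (limma adjusted p 0.0153). It did not pass without DMSO replicate 1, DMSO replicate 2 or JG342 replicate 1 (limma adjusted p 0.0587, 0.0927 and 0.0505). The more abundant RAB11B, of recycling endosomes, was at 167 and 175 TPM against 204 and 199 TPM, and RAB8A, of exocytic carriers, at 183 and 182 TPM against 166 and 164 TPM. Neither passed (limma adjusted p 0.103 and 0.281).

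Fusion genes of the SNARE and SM families had 5 of 22 fitted genes past the threshold (22.7%), all of them higher, with a median of 0.19. Over all fitted genes 18.4% passed, 10.8% as higher. VAMP2, a vesicle SNARE, had the largest change, from 62.1 and 57.9 TPM to 164 and 106 TPM. Its treated libraries differed from each other more than its controls did, and both lay above them (1.12 ± 0.18, limma adjusted p 0.00407). VAMP2 passed without each library in turn, while STXBP2, STX7, VAMP7 and UNC13B did not. With no filter on low values 0 of the 5 passed in limma (adjusted p 0.0541 to 0.120, VAMP2 at 0.0580), and with no trend VAMP2 was the 1 that did, all at the same log2 differences. STXBP2, also called Munc18-2 and a partner of UNC13D in granule fusion, rose from 81.4 and 84.8 TPM to 109 and 122 TPM (0.47 ± 0.10, limma adjusted p 0.0144; at most 0.0861, without DMSO replicate 1). STX7, an endosomal syntaxin, rose from 40.7 and 37.8 TPM to 61.8 and 52.3 TPM (0.53 ± 0.12, limma adjusted p 0.0177; at most 0.114, without DMSO replicate 2). The lysosomal SNARE VAMP7 rose by 0.39 ± 0.11 (limma adjusted p 0.0384), a call lost after median scaling (0.0690) or quantile normalization (0.0544). With single libraries left out its difference ran from 0.33 to 0.46, and the call was lost each time. UNC13B, named here after its values were seen as the remaining gene of the 5, rose from 14.6 and 13.7 TPM to 22.5 and 18.1 TPM (0.49 ± 0.14, limma adjusted p 0.0460). It did not pass after median scaling (limma adjusted p 0.0658) or quantile normalization (0.0788). Of the fits without a single library it passed only in that without JG342 replicate 2, with differences from 0.34 to 0.64. It is the UNC13 gene with the highest level here, with UNC13A at most 0.39 TPM and UNC13D at or near 0. VAMP8, the granule SNARE with the highest level, was at 250 and 246 TPM against 234 and 207 TPM and did not pass. The STXBP2 transcript matches another annotated gene, AC008763.2, at 98.4% identity over 33.4% of its length, which makes its value less certain.

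The exocyst, which tethers vesicles to the plasma membrane, had 1 of 9 genes past the threshold (11.1%, against 18.4% of all). Its median was 0.18. EXOC1 rose from 19.8 and 19.3 TPM to 26.9 and 28.1 TPM, by 0.47 ± 0.12 (limma adjusted p 0.0248), and did not pass when any single library was left out (0.0532 to 0.133). Among 6 fitted synaptotagmins and other C2 domain relatives, 1 passed (16.7%, against 18.4% of all fitted genes). ESYT1, which joins the endoplasmic reticulum to the plasma membrane, went from 60.1 and 74.9 TPM to 126 and 119 TPM, by 0.86 ± 0.12 (limma adjusted p 0.00265), and passed without each library in turn. Its paralog ESYT2 was at 54.99 and 57.9 TPM against 61.7 and 54.02 TPM and did not pass. Of this list 10 further genes had a row but were not fitted, among them SYT7, a calcium sensor of lysosome exocytosis, at 0.03 TPM in DMSO replicate 1 and at 0 elsewhere.

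Multivesicular body and exosome genes had 5 of 20 fitted genes past the threshold, 3 higher and 2 lower, with a median of 0.18. Over all fitted genes 18.4% passed, 10.8% as higher and 7.62% as lower. SDCBP, syntenin, an adaptor for exosome formation, rose from 66.03 and 67.6 TPM to 101 and 99.7 TPM (0.58 ± 0.10, limma adjusted p 0.00517). CD9, a tetraspanin used as an exosome marker, was at 181 and 222 TPM with DMSO and at 111 and 118 TPM with JG342, and fell by 0.81 on the log2 scale (SE 0.12, limma adjusted p 0.00276). CHMP4B, an ESCRT-III subunit that cuts vesicle necks, went from 751 and 731 TPM to 503 and 513 TPM, and fell by 0.54 (SE 0.09, limma adjusted p 0.00441). SDCBP, CD9 and CHMP4B passed without each library in turn. VPS28, an ESCRT-I subunit, rose by 0.39 ± 0.09 (limma adjusted p 0.0201). With any single library left out the difference was 0.37 to 0.41 and did not pass (limma adjusted p 0.0503 to 0.118). CHMP4A, named after its values were seen as the remaining gene of the 5, rose by 0.50 ± 0.12 (limma adjusted p 0.0244, and 0.0507 after median scaling). Without single libraries its difference ran from 0.39 to 0.61, and it did not pass without DMSO replicate 2 or JG342 replicate 1. Of its transcript 95.5% matches another annotated gene, AL096870.2, so its value is uncertain. CD63, the tetraspanin of late endosomes, was at 411 and 351 TPM against 520 and 408 TPM, with overlap between treatments, and did not pass. CD81, another exosome tetraspanin, was at most 0.31 TPM.

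Genes of lysosome-related organelles had 2 of 20 fitted genes past the threshold (10.0%, against 18.4% of all), both higher. Their median was 0.11. HPS4, part of the exchange factor for RAB32 and RAB38, rose from 25.4 and 23.9 TPM to 35.9 and 36.9 TPM (0.55 ± 0.11, limma adjusted p 0.0123), a call lost without DMSO replicate 1 or 2 (0.0503 and 0.0924, differences 0.59 and 0.50). AP3D1, the delta subunit of the AP-3 coat, rose from 99.6 and 107 TPM to 142 and 132 TPM (0.41 ± 0.10, limma adjusted p 0.0226), a call lost without DMSO replicate 1, DMSO replicate 2 or JG342 replicate 1 (0.134, 0.0817 and 0.0939). BLOC1S1 and SNAPIN, abundant subunits of a complex that sorts cargo to these organelles, did not pass.

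**Figure D5:**
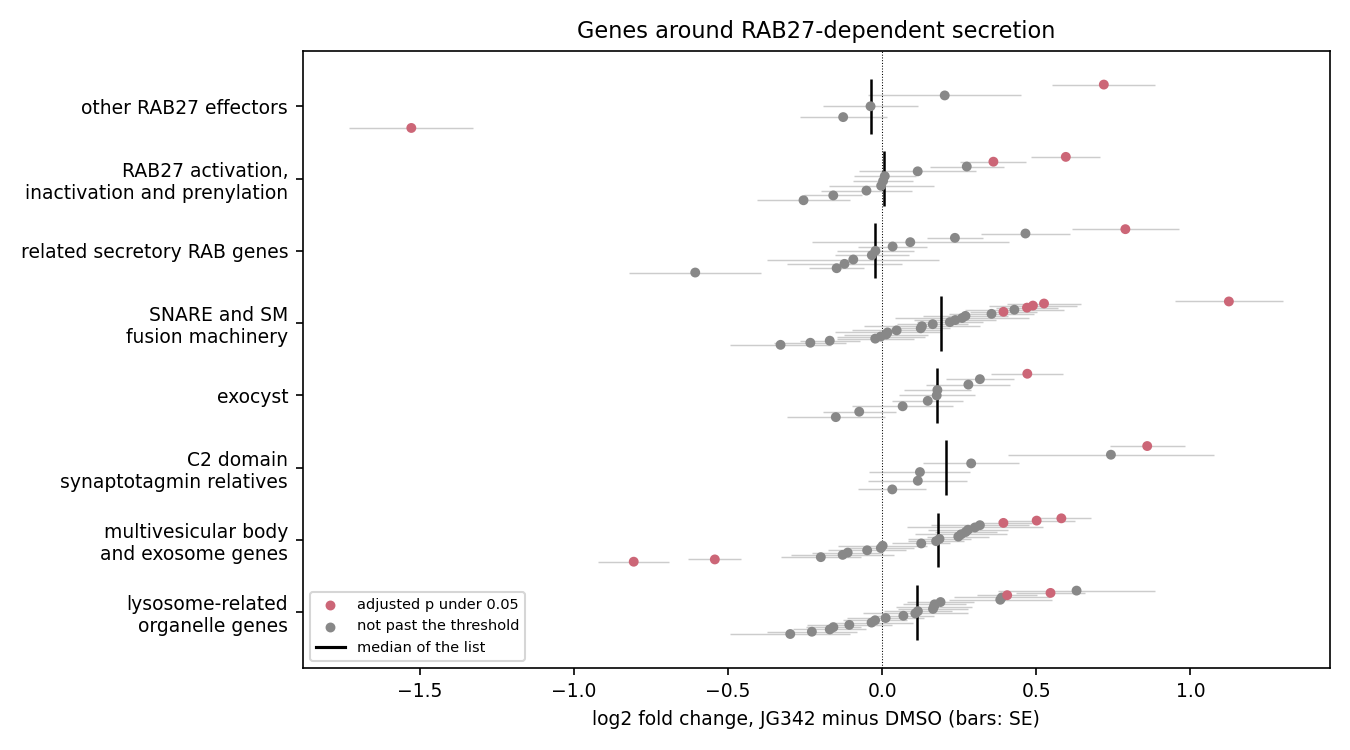
Log2 difference between JG342 and DMSO (points, with SE as bars) for the 103 fitted genes of 8 lists, with genes past the threshold in red and the median of each list as a black line. Medians lie between −0.04 and 0.21, and the points farthest from 0 are MYO7A at −1.53 and VAMP2 at 1.12, against 3.93 for SYTL1, which is not drawn.

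The 5 fitted genes whose centred log2(TPM + 1) values over the 4 libraries lay nearest to those of SYTL1 were BEX2, RCAN2, GDF15, TRIB3 and ASS1. Their Euclidean distances were 0.440, 0.665, 0.773, 0.814 and 0.910 in that order, against a median of 3.91 over all fitted genes. BEX2 was at 8.36 and 10.96 TPM with DMSO and 132 and 126 TPM with JG342, and like SYTL1 its treated libraries were close to each other. RCAN2, a calcineurin regulator, and GDF15, a secreted stress factor, were nearly silent with DMSO (0.15 to 0.32 TPM) and reached 9.14 to 15.8 TPM with JG342. TRIB3, a pseudokinase of the stress response, went from 27.5 and 44.4 TPM to 343 and 384 TPM. With 4 libraries in 2 treatments, this likeness mostly reflects a similar size of the difference on the log2(TPM + 1) scale. The added 1 TPM shrinks the differences of RCAN2 and GDF15, which start under 1 TPM, more than that of SYTL1. The ratios of means are therefore less alike. None of the 10 promoter windows of these 5 genes held a match to either motif searched.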

How the data were processed

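RNA of 4 MM.1S cultures was sequenced on a BGISEQ-500, per the labels' protocols. The authors deposited 1 table of TPM with 1 RefSeq accession and symbol per gene (16057 genes). The submitters' processing notes name HISAT2 2.0.4, Bowtie2 2.2.5 and RSEM 1.2.12 without saying what each did, and the genome build, annotation and strand setting are not given in the sources used here. TPM divide by transcript length and library total, so a rise of abundant transcripts lowers all others.

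JG342 was compared with DMSO by limma 3.58.1 (R 4.3.3, lmFit and eBayes with a trend, two-sided) on log2(TPM + 1), with treatment as the only term, for the 12042 genes whose mean over the libraries reached 1 TPM, leaving out 4015. Adjusted p-values are Benjamini-Hochberg over all fitted genes, with a threshold of 0.05. Fold changes on this scale understate the change of low genes. The fit had 2 residual and 6.89 prior degrees of freedom, and it was tested on simulated data. An exact permutation test with 2 against 2 libraries cannot reach 0.05 and was not used.

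The genes, lists and tests were chosen with earlier results of these data known. Per list, the named genes are up to 4 past the threshold with the smallest p and up to 2 further genes with the highest mean TPM, and exceptions are stated where they occur. The 5 genes nearest to SYTL1 in Euclidean distance are also named. Transcripts were compared with GENCODE transcripts by BLAST for copies of at least 95% identity over at least 20% of the length. Among the genes described that did not pass, GDI2, RAB8A and BLOC1S1 had such matches. These covered 42.4%, 33.3% and 64.3% of their transcripts, so their values are less certain. The alternatives were other pseudocounts, filters and scalings, a fit without a trend, a replicate term, and leaving out each library. One gene counted in the lists is not reported here by name.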

Additional observations from a re-analysis of the deposited data

How the results depend on the processing

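RAB27A passed under every alternative run, with log2 differences from 0.53 to 0.69, and SYTL2 passed under none. SYTL1 stayed higher after JG342 in all of them: its log2 difference was 4.25 with a pseudocount of 0.1 TPM, 4.10 with 0.5 TPM, 3.87 with median scaling, 3.86 with quantile normalization, and 3.89 to 3.97 without single libraries. The number of genes passing, 2221 of all genes and 19 of the lists, fell to 828 and 8 without the filter on low values, of which 763 of the 828 also passed with it, and to 767 to 1825 and 6 to 18 without single libraries, where fewer samples were fitted. Without the trend 1508 genes and 11 of the lists passed, and the cause was not tested. The share of higher genes among those passing was 58.7%, and it was 44.6% (966 higher, 1200 lower) with median scaling, 50.8% with quantile normalization, 65.1% without the trend and 75.0% without DMSO replicate 2. Of 23 named or neighbouring genes that passed, SYTL1 left aside, 9 passed without each library in turn.

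Both treatments carry replicate numbers 1 and 2, but what the numbers mark is not stated, and with 2 pairs they were not taken to pair the cultures. Deviations of same-numbered libraries correlated at Pearson r 0.275 (Spearman rho 0.304) across genes, which are not independent. With a replicate block 4207 genes and 32 of the lists passed, and with the block and median scaling 3985 and 25, where SYTL1 was at 3.87. RAB27A passed with the block (0.61, limma adjusted p 1.23e-09) and SYTL2 did not (0.245). The replicate term leaves fewer residual degrees of freedom than the 2 of the main fit. Before median scaling CCPG1 had a limma adjusted p of 4.07e-106 with the block, against 1.69e-05 in the main fit. Values that small cannot rest on the spread of each gene over 4 libraries. Counts and adjusted p-values from the unscaled block therefore carry little weight, for RAB27A and for genes gained alike. Of 19 named or neighbouring genes that missed the threshold, 4 passed with the block: RSL24D1 (5.51e-08), CD63 (0.00211), EXOC3 (0.0177) and RAB11B (0.0203). With the block and median scaling RSL24D1 (0.00372) and VAMP8 (0.0428, lower) did.

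Differences close to 0 changed sign, and none of these genes passed: with median scaling, with and without the block, RABGGTB was at −0.065 and ESYT2 at −0.035. Without single libraries RABGGTB ranged from −0.051 to 0.057, ESYT2 from −0.062 to 0.127, MYO5A from −0.247 to 0.171 and DOC2A from −0.043 to 0.288. TPM keep no depth, so levels under 1 TPM have no interval.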
